A study of Xenopus laevis with 3 samples.

Results

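Spots for digestive enzymes and brush border genes were followed across the endoderm of the frog Xenopus laevis, in its anterior and posterior regions, at embryonic stages 30, 39 and 46. The members were the array spots whose annotated name contained bile-salt, trypsin (without inter-alpha or inhibitor), elastase, carboxypeptidase, amylase, villin or alkaline phosphatase, together with the spot XL060g12. The rule took 10 of 21504 spots. Of its 7 name patterns, 4 (bile-salt, elastase, carboxypeptidase and amylase) matched no spot. The annotations were best database matches, often to a protein of another species.

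Pancreatic acinar cells secrete enzymes that break down protein, starch and fat in the gut lumen, and bile salt-dependent lipase is one of them. The absorptive cells of the intestine carry a brush border of microvilli, bundled by actin-binding proteins such as villin and studded with surface hydrolases such as intestinal alkaline phosphatase. In frogs the exocrine pancreas arises from the anterior endoderm, and the tadpole gut coils and forms its lining before feeding begins.

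The 10 spots only partly fitted the name of the group. XL060g12, annotated as bile salt-dependent lipase, was the 1 spot for a pancreatic enzyme, and XL094m14 was the 1 spot for villin. The other members were 7 spots annotated as tissue-nonspecific alkaline phosphatase, an enzyme known in mammals from bone, liver and kidney and distinct from the intestinal form, and 1 spot (XL069n02) annotated as neurotrypsin, a serine protease known in mammals from neurons. The RefSeq annotation of Xenopus laevis (assembly v10.1) lists 2 genes each for tissue-nonspecific alkaline phosphatase, intestinal alkaline phosphatase and villin, 4 genes for bile salt-dependent lipase and 1 gene for neurotrypsin. Which of the listed genes of a name a spot measured cannot be told from these annotations.

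At each stage the endoderm was separated by hand into an anterior region, the future lung, oesophagus, stomach, duodenum, pancreas, liver and gallbladder, and a posterior region, the future intestine. The labels give no genotype, strain or treatment. Each stage had 2 two-colour cDNA arrays, called A and B, and each of the 6 arrays received RNA from both regions. Anterior cDNA carried the dye Cy5 and posterior cDNA the dye Cy3 on every array, so in a single ratio region and dye cannot be told apart. A dye effect that a spot has at every stage cancels in a difference between stages. Whether A and B came from separate dissections is not stated in the labels, so the p-values measure the spread between hybridisations, which may be technical. In RNA of a dissected region, fewer cells of a type and less RNA per cell cannot be told apart.

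Median spot intensity of the 12 channels lay between 607 and 3037, and between 39.5% and 62.7% of spots were well above background, meaning more than 2 background SDs above the local background. The medians lay between 1480 and 3037 at stage 30, 805 and 1135 at stage 39, and 607 and 874 at stage 46. Raw intensity thus differed by stage, and levels compared across stages rest on the normalisation between arrays. The log2 ratios of arrays A and B correlated across spots with r of 0.848, 0.947 and 0.935 at stages 30, 39 and 46 (spots are not independent replicates). A spot was tested when it was well above background in 1 or both regions on at least 2 arrays, which 15646 spots and 8 of the 10 members passed. The neurotrypsin spot and the alkaline phosphatase spot XL068h15 did not pass. The scanning software found 4 members on all 6 arrays (XL060g12, XL094m14, XL095o12 and XL108o04), and 2 of these, XL094m14 and XL108o04, were well above background in both regions on all 6 arrays. No member had a saturated pixel on any array.

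**Figure D1:**
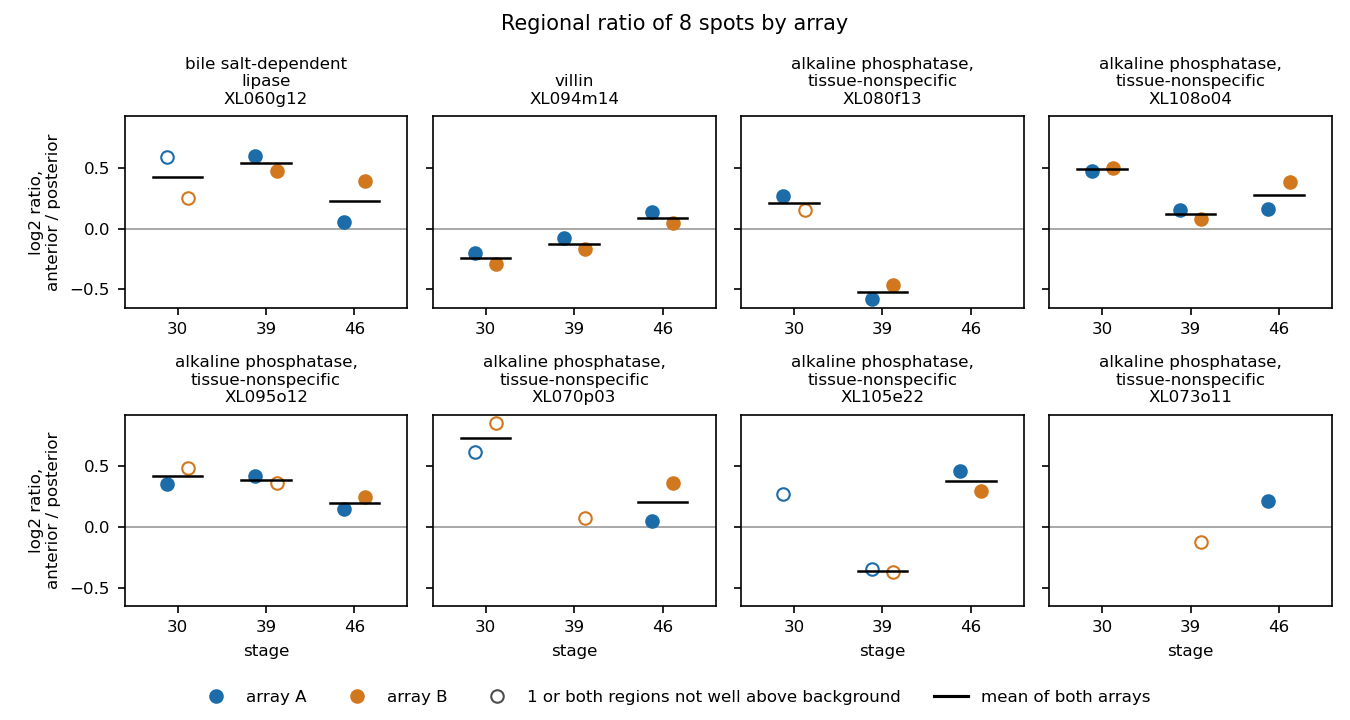
Log2 ratio of anterior over posterior signal on each array (vertical axis) by stage (horizontal axis) for the 8 members that passed the filter. Filled points are arrays with both regions well above background, and open points are arrays with 1 or both regions not well above background. Black bars are means of 2 arrays, and the grey line is equal signal. Villin lay below the line on the arrays of stages 30 and 39 and above it at stage 46, and XL080f13 lay above the line at stage 30 and below it at stage 39.

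Bile salt-dependent lipase (XL060g12), which splits dietary fats and cholesterol esters once bile salts activate it, was higher in anterior endoderm at stage 39. The log2 ratio of anterior over posterior was 0.60 on array A and 0.48 on array B at that stage. Both arrays lay above 0, and both regions were well above background on both. The mean ratio of the 2 arrays was 0.54 ± 0.10, a 1.45-fold higher signal in anterior endoderm (limma, adjusted p = 0.00244). Values after ± are limma's SEs, which pool the spread over the arrays of all stages and are not those of 2 arrays alone. They are also drawn towards a spread shared by all spots. That shared spread weighed more (prior 4.71 degrees of freedom) than the spot's own (3 residual degrees of freedom). Without stage 39 array A the adjusted p was 0.0521.

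At stage 30 the lipase spot had log2 ratios of 0.59 on array A and 0.26 on array B. Its mean of 0.42 ± 0.10 passed the test (limma, adjusted p = 0.00916), but neither region was well above background on either array, so no fold is given. Without stage 30 array A the adjusted p was 0.116. At stage 46 the log2 ratios were 0.06 on array A and 0.39 on array B, and both regions were well above background. The mean of 0.22 ± 0.10 did not pass (limma, adjusted p = 0.0942). The arrays differed more from each other there than at stage 39. The SE pools all arrays, is drawn towards the shared spread and was 0.10 at each stage, whereas the mean was smaller than at stage 39.

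The ratio of the lipase spot differed between stages 39 and 30 by 0.12 ± 0.14 on the log2 scale (limma, adjusted p = 0.516) and between stages 46 and 39 by -0.31 ± 0.14 (limma, adjusted p = 0.105). Neither difference passed the test, although the second did with no background subtraction (-0.29, adjusted p = 0.0491). Its normalised log2 level in anterior endoderm averaged 9.26, 9.78 and 9.31 at stages 30, 39 and 46, and in posterior endoderm 8.83, 9.25 and 9.08. The stage 30 values are those of spots not well above background. Stage 39 had the highest mean in both regions, and no step between neighbouring stages passed the test. Levels compared across stages depend on the normalisation between arrays. Over the alternative settings the log2 step from stage 30 to 39 ran from -0.63 to 0.64 in anterior and from -0.75 to 0.64 in posterior endoderm.

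A second spot with the same annotation, XL063o10, is not taken by the rule because its name has a space where the pattern has a hyphen. It was found only on the 2 arrays of stage 46 and was well above background in neither region on any array. Its log2 ratios there were -0.32 on array A and -0.29 on array B, below 0 on both arrays, whereas XL060g12 lay above 0 on both. Because the second spot was dim in both regions, no fold is given, and the opposite sign was not tested.

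Villin (XL094m14), which bundles actin in microvilli, was lower in anterior than in posterior endoderm at stage 30. Its log2 ratio was -0.20 on array A and -0.29 on array B. The mean of the 2 arrays, -0.24 ± 0.06, corresponds to a 1.18-fold lower signal in anterior endoderm (limma, adjusted p = 0.00937). Without stage 30 array B the adjusted p was 0.0667.

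At stage 39 the villin ratios were -0.08 on array A and -0.17 on array B, with a mean of -0.12 ± 0.06 (limma, adjusted p = 0.100). With median centring in place of loess the mean was -0.19 and the adjusted p 0.0167. At stage 46 they were 0.14 on array A and 0.05 on array B, with a mean of 0.09 ± 0.06 (limma, adjusted p = 0.217). Both stage 46 arrays lay above 0 and all arrays of the earlier stages below it. The difference between neighbouring stages was 0.12 ± 0.08 for stage 39 minus 30 (limma, adjusted p = 0.246) and 0.22 ± 0.08 for stage 46 minus 39 (limma, adjusted p = 0.0626), and neither passed. The second one passed where ratios were median-centred (adjusted p = 0.0468) and without either array of stage 30 (adjusted p = 0.0454 in both cases).

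The normalised log2 level of villin in anterior endoderm was 9.92 and 9.56 on arrays A and B of stage 30, 9.66 and 9.93 at stage 39, and 10.45 and 10.46 at stage 46. In posterior endoderm it was 10.12 and 9.84 at stage 30, 9.74 and 10.10 at stage 39, and 10.31 and 10.41 at stage 46. In both regions the stage 46 arrays lay above all arrays of the earlier stages in these normalised levels. Over the alternative settings the log2 step from stage 30 to 39 ran from -1.17 to 0.24 in anterior and from -1.29 to 0.12 in posterior endoderm. The anterior level at stage 46 was 1.58-fold that at stage 39 (log2 0.66 ± 0.26, limma separate-channel fit, unadjusted p = 0.0266, adjusted p = 0.165), and the posterior level 1.36-fold (0.44 ± 0.26, adjusted p = 0.403). Neither passed after adjustment.

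**Figure D2:**
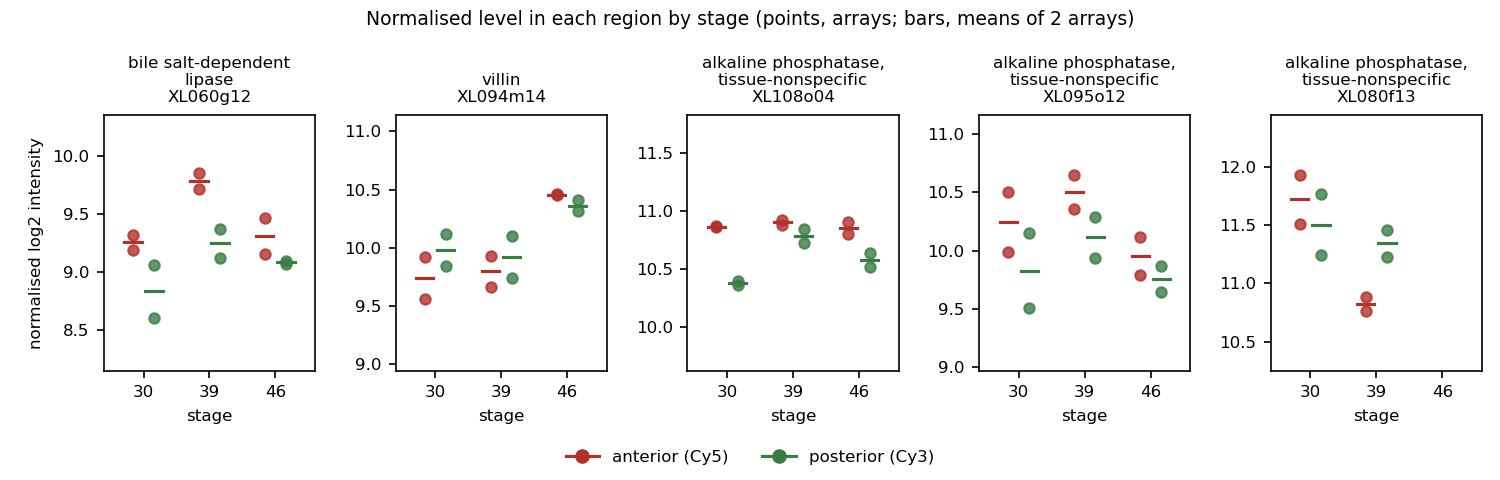
Normalised log2 intensity (vertical axes, each spanning the same log2 range around the spot's own mean) by stage for the 4 members found on all arrays and for XL080f13, with anterior endoderm in red to the left of posterior endoderm in green. Points are arrays and bars are means of 2 arrays. Both regions of villin were highest at stage 46, and XL080f13 has no points at stage 46 because the software did not find it there.

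Alkaline phosphatases remove phosphate groups from substrates at the outer face of cells. Of the 7 spots with this annotation, 6 passed the filter, and 4 had a value on both arrays at each stage, though not always the same 4. These spots carry 1 name and may share 1 gene, so they are not independent of each other. All 4 with a value were higher in anterior endoderm at stage 30, with log2 ratios between 0.22 and 0.73 (28.6% of all spots tested were higher). Of these, only XL108o04 was well above background on both arrays. XL070p03, with the highest ratio, was well above background in neither region on either array, and XL080f13 and XL095o12 in neither region on array B. At stage 39, 1 was higher and 2 were lower, with ratios between -0.52 and 0.39 (31.4% of all spots were higher and 31.7% lower). Of the 2 lower, XL105e22 was well above background in neither region on either array. At stage 46, 3 were higher and none was lower, with ratios between 0.20 and 0.38 (30.4% of all spots were higher). This count leaves out XL080f13, which the software did not find at stage 46. With spots not found kept, XL080f13 was lower there (-0.63, limma, adjusted p = 0.00154), but neither region was well above background on either array.

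XL080f13, with the highest mean signal over the arrays among spots of this name, differed in sign between stages. Its log2 ratio was 0.27 on array A and 0.16 on array B at stage 30, against -0.58 and -0.46 on the arrays of stage 39. The stage 30 mean was 0.22 ± 0.06 (limma, adjusted p = 0.0257) and the stage 39 mean -0.52 ± 0.06, a 1.43-fold lower signal in anterior endoderm (limma, adjusted p = 0.000487). On array B of stage 30 neither region was well above background by the measure of 2 background SDs. The spot was not dim there, with a median intensity of 5908 over a background of 278 in anterior endoderm. In posterior endoderm it was 5766 over 797. The stage 30 call was lost without array A (adjusted p = 0.154) and with spots not found kept (0.22, adjusted p = 0.0977). The ratio at stage 39 was below that at stage 30 by a log2 difference of -0.74 ± 0.09 (limma, adjusted p = 0.000569).

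In anterior endoderm the normalised log2 level of XL080f13 averaged 11.72 at stage 30 and 10.83 at stage 39, and in posterior endoderm 11.51 at stage 30 and 11.35 at stage 39. The difference between the stage means was larger in the anterior region. Fitted for each channel alone, the anterior step was -0.90 ± 0.25 (limma, adjusted p = 0.0969) and the posterior step -0.16 ± 0.29 (adjusted p = 0.786), and neither passed. At stage 46 the software found the spot on neither array. With spots not found kept, its stage 46 ratio was -0.63 (limma, adjusted p = 0.00154). That value rests on spots not well above background in either region. On array A the local background was high, with an anterior intensity of 1382 over 1080 and a posterior intensity of 2289 over 1567.

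XL108o04, well above background in both regions on every array, was higher in anterior endoderm at stages 30 and 46. Its log2 ratios were 0.47 and 0.50 on arrays A and B of stage 30, 0.15 and 0.08 at stage 39, and 0.16 and 0.39 at stage 46. All 6 lay above 0. The means were 0.49 ± 0.07 at stage 30 (1.40-fold, limma, adjusted p = 0.000747), 0.12 ± 0.07 at stage 39 (adjusted p = 0.162) and 0.28 ± 0.07 at stage 46 (1.21-fold, adjusted p = 0.00980). Median-centred, stage 39 passed as well (adjusted p = 0.0443), and without stage 46 array B the stage 46 ratio did not (adjusted p = 0.184).

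The ratio of XL108o04 at stage 39 was below that at stage 30 by a log2 difference of -0.37 ± 0.10 (limma, adjusted p = 0.0109). Without stage 39 array B the adjusted p was 0.0671. Its anterior level averaged 10.87, 10.90 and 10.85 at the 3 stages, and its posterior level 10.38, 10.79 and 10.58. The anterior means hardly differed, while the posterior mean was highest at stage 39, and no step passed the test. These levels depend on the normalisation between arrays. Over the alternative settings the log2 step from stage 30 to 39 ran from -1.21 to 0.07 in anterior and from -0.84 to 0.46 in posterior endoderm.

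XL095o12 was higher in anterior endoderm at all 3 stages. Its mean log2 ratios were 0.42 ± 0.06 at stage 30 (limma, adjusted p = 0.000936), 0.39 ± 0.06 at stage 39 (adjusted p = 0.000921) and 0.20 ± 0.06 at stage 46 (adjusted p = 0.0269). All 6 arrays lay above 0, between 0.15 and 0.49. Neither region was well above background on array B of stage 30, nor was the posterior region on array B of stage 39. The stage 46 call was lost without array A (adjusted p = 0.0850), without array B (adjusted p = 0.263) and where ratios were median-centred (adjusted p = 0.0668).

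XL105e22 and XL070p03 were well above background in neither region at stages 30 and 39. XL105e22 had log2 ratios of -0.35 and -0.37 on arrays A and B of stage 39, where neither region was well above background, against 0.46 and 0.29 at stage 46, where both were. Its mean was -0.36 ± 0.06 at stage 39 (limma, adjusted p = 0.00269) and 0.38 ± 0.06 at stage 46 (1.30-fold, adjusted p = 0.00291, or 0.0584 without stage 46 array A). The ratio at stage 46 exceeded that at stage 39 by 0.74 ± 0.09 (limma, adjusted p = 0.000842). This difference rests on spots not well above background at stage 39. XL070p03 had a mean of 0.73 ± 0.09 at stage 30 (limma, adjusted p = 0.000883), again with neither region well above background, and 0.20 ± 0.09 at stage 46 (adjusted p = 0.107). With the array letter as a replicate block, its stage 46 ratio had an adjusted p of 0.0404.

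The remaining members gave few values. XL073o11 was found on 1 array of stage 39 (log2 ratio -0.13) and on 1 array of stage 46 (0.22). XL068h15 was found on the arrays of stage 46, with log2 ratios of 0.18 and 0.29. The neurotrypsin spot was found on array A of stage 39 alone, with a log2 ratio of -0.27, and its anterior signal there was not well above background. None of these spots had a value on both arrays of a stage past the filter, so none entered the tests above. With spots not found kept, XL073o11 passed at stage 46 (0.24, limma, adjusted p = 0.00787).

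Counted over the members, 6 of the 6 with values passed the test at stage 30 (5 with more and 1 with less signal in the anterior region), where 56.4% of all spots tested passed, 28.6% higher and 27.7% lower. At stage 39, 4 of 6 passed (2 higher and 2 lower), against 63.1% of all spots, 31.4% higher and 31.7% lower. At stage 46, 3 of 6 passed, all higher, against 55.6% of all spots, 30.4% higher. The median log2 ratio of the members was 0.42, -0.0034 and 0.21 at stages 30, 39 and 46, and that of all spots tested 0.01, 0.01 and 0.02. With so many spots called on the array as a whole, the members' counts at stages 39 and 46 are near the background share. At stage 30, 4 of the spots called share the alkaline phosphatase name and are not independent. XL060g12 and XL070p03 were well above background in neither region at that stage.

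**Figure D3:**
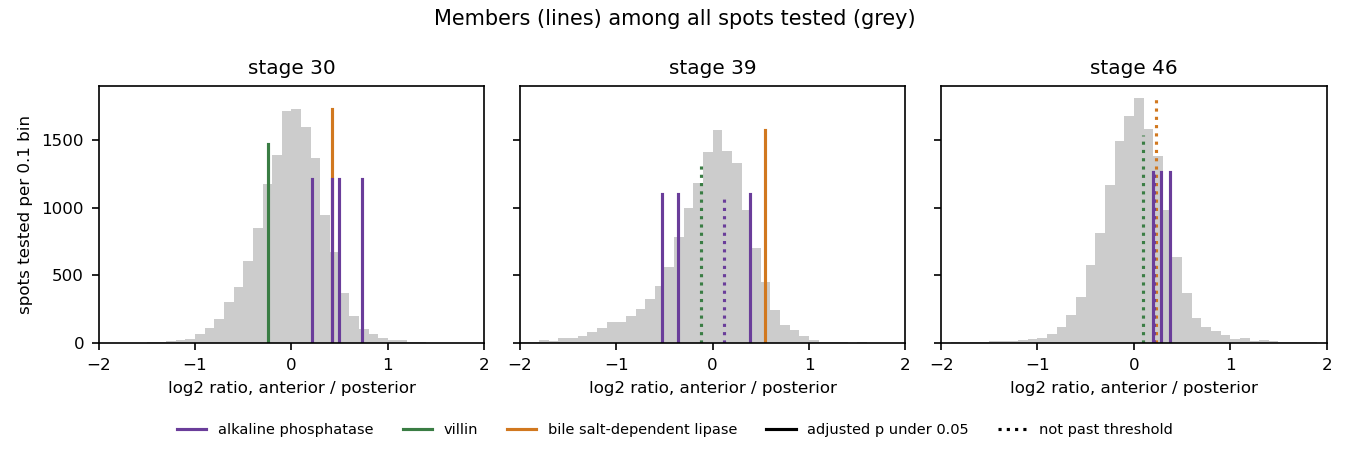
Number of spots tested per bin of 0.1 (vertical axis, grey bars) by log2 ratio of anterior over posterior (horizontal axis) at each stage, with the members as coloured lines, solid where the adjusted p was under 0.05 and dotted where it was not. Line height only separates the annotations. At stage 30 villin is the 1 member left of 0, and at stage 46 all 6 members with a value lie right of 0. XL080f13 has no line at stage 46 because the software did not find it there.

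Between stages the ratio differed for 2 of 5 members from stage 30 to 39, both lower at stage 39, where 60.1% of all spots passed in either direction and 30.5% were lower. From stage 39 to 46 it differed for 1 of 5, higher at stage 46, against 50.2% of all spots, with 28.1% of all spots higher at stage 46. Within a single region, no step of the 4 members found on all arrays passed the limma separate-channel test after adjustment. Among all spots in that fit, 10.5% passed for stage 39 over 30 and 5% for stage 46 over 39 in anterior endoderm, and 6.82% and 5.16% for the same steps in posterior endoderm. Of the 16 member steps, 1 had an unadjusted p under 0.05, the anterior step of villin given above.

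Other digestive enzymes were almost absent from the annotations. The list of lipases, pepsins and related enzymes matched 2 spots, the second lipase spot above and XL097f24, annotated as pancreatic lipase related protein, a relative of the main fat-digesting enzyme of pancreatic juice. Its log2 ratios were 0.96 and 0.99 on arrays A and B of stage 30, -0.80 and -0.41 at stage 39, and -0.29 and -0.09 at stage 46. It lay above 0 at stage 30 and below 0 on every later array. The stage 30 mean was 0.97 ± 0.09 (1.96-fold, limma, adjusted p = 0.000189, with 1 of the 2 arrays well above background in both regions), the stage 39 mean -0.61 ± 0.09 (adjusted p = 0.000926) and the stage 46 mean -0.19 ± 0.09 (adjusted p = 0.126). The spot was well above background in 1 or both regions on 2 of the 6 arrays.

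The list of other brush border and absorption genes (plastins, aminopeptidases, fatty acid-binding proteins, mucins and others) matched 20 spots. At stage 30, 4 of 16 with values were higher in anterior endoderm and 4 lower, at stage 39, 5 of 14 were higher and 2 lower, and at stage 46, 1 of 16 was higher and 5 lower. Of all spots tested, 28.6% were higher and 27.7% lower at stage 30, 31.4% and 31.7% at stage 39, and 30.4% and 25.2% at stage 46. Their median log2 ratios were -0.03, 0.05 and -0.02. The lowest value at stage 46 was that of an aminopeptidase B spot (XL091f10), -0.93 ± 0.07 (limma, adjusted p = 3.90e-05). Aminopeptidase B and T-plastin, which accounts for several spots of the list, are found in many tissues and are not specific to the intestinal brush border. Other spots of the list are named cytosol aminopeptidase, methionine aminopeptidase 2, heart fatty acid-binding protein and tracheal mucin 4. The counts therefore do not stand for the brush border alone.

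The same shares of all spots apply to the protease inhibitor and secretory pathway lists. They were 28.6% higher and 27.7% lower at stage 30, 31.4% and 31.7% at stage 39, and 30.4% and 25.2% at stage 46. The median log2 ratio of all spots was 0.01, 0.01 and 0.02. Among protease inhibitors, 1 of 4 spots was higher and none lower at stage 30, 2 of 5 higher and 1 lower at stage 39, and 2 of 5 higher and 3 lower at stage 46. Every higher call was that of a spot named inter-alpha-trypsin inhibitor. The lower calls were those of Kunitz-type protease inhibitor 1 and metalloproteinase inhibitor 2 spots. Secretory pathway genes carry new proteins into the endoplasmic reticulum and fold them there. Many spots of this list share an annotated name, such as translocon-associated protein, so they are counted as spots and not as genes. These spots were mostly lower in anterior endoderm at stage 39 (24 of 31 lower, 2 higher, median log2 ratio -0.53). They were mostly higher at stage 46 (24 of 27 higher, none lower, median 0.74). At stage 30, 15 of 29 were lower and 3 higher (median -0.17), but 9 of 30 were lower without stage 30 array A or without array B, and 10 of 29 with median centring (median -0.09). Median centring also gave 18 lower and 5 higher of 31 at stage 39 (median -0.32), and 24 higher and 1 lower of 27 at stage 46 (median 0.73).

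Lists of markers of other tissues were counted in the same way, and the same shares of all spots apply. Liver spots (transferrin and fibrinogen) were higher in anterior endoderm for 5 of 6 at stage 30, 5 of 6 at stage 39 (1 lower) and 3 of 5 at stage 46. The 2 spots with values on the endocrine pancreas list were a somatostatin precursor (XL091d01), higher at stages 39 and 46 (log2 ratios 0.67 and 0.70), and a somatostatin receptor (XL101k15), which is no hormone, higher at stage 46 (0.39). All 10 spots of the posterior patterning list carry 1 annotated name, posterior protein (Xpo), so they are counted as spots and not as genes. Of these, 4 of 5 with values were lower at stage 30, 0 of 3 at stage 39 and 3 of 5 at stage 46 (1 higher).

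Muscle spots, which dissection could carry along, were higher for 8 and lower for 4 of 16 at stage 30, higher for 1 and lower for 14 of 18 at stage 39, and higher for 4 and lower for 5 of 18 at stage 46, the last near the share of all spots. The list fixed for epidermis held 23 keratin spots, 7 of them named keratin 8, 18 or 19, which are keratins of simple epithelia such as the gut lining, and 9 spots of the hatching gland gene UVS.2, so its counts do not stand for epidermis alone. They were 12 higher and 9 lower of 27 at stage 30, 3 higher and 12 lower of 21 at stage 39, and 8 higher and 9 lower of 24 at stage 46. No spot matched the blood list (hemoglobin) or the stomach list (pepsinogen, H+/K+ and gastrin). Genes of these tissues under other names were not counted. The part of other tissues in the members' ratios was not tested.

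The named spots most like the lipase spot over the 12 channel values were a match to the yeast protein Ylr247cp (Pearson r = 0.94), a spot whose name is cut off after "Similar to" (0.92) and S-adenosylmethionine decarboxylase (0.92), among 6676 candidates. For XL108o04, the brightest alkaline phosphatase spot with all 12 values, they were a poly-U binding protein (0.91), hairy2b (0.86) and an mRNA guanine-N7 methyltransferase (0.85), among 6733. The 12 values come from 6 arrays, each shared by 2 values, and the spots were picked as the highest of many, so these are descriptions only.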

How the data were processed

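RNA of anterior (Cy5) and posterior (Cy3) endoderm was measured on 6 two-colour cDNA arrays, 2 per stage. The deposited scanner files give, per spot and dye, median intensity and local background, neither subtracted nor normalised, with the percent of saturated pixels and a score that marks spots not found. The authors' deposited table holds a single ratio per spot and stage, normalised with GeneData Refiner and Expressionist per the labels, with scale and centring unstated. It ran anterior over posterior when set against the ratios computed here (r across spots 0.995, 0.868 and 0.978 at stages 30, 39 and 46), and its column medians were 0.975, 0.802 and 0.924. It served only as an alternative.

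Ratios were computed in R 4.3.3 with limma 3.58.1 (files were read with version 1.17.8 of the data.table package): normexp background correction (offset 50), loess within arrays (span 0.3, with 231 control spots and spots not found given no weight and then left out), and 1 limma fit with a mean per stage (3 residual degrees of freedom, prior 4.71). Levels within a region were compared by limma's separate-channel fit (intraspot correlation 0.952) after Aquantile normalisation, on 11791 spots with values on all arrays. Tests were two-sided, with Benjamini-Hochberg adjustment over all spots of a comparison and a threshold of 0.05. Precision is limited by 2 arrays per stage. The scripts were tested on simulated data.

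The members and lists were chosen with earlier results of these data known. Every member is named or counted. Full values go to the brightest spot of a name (and here to the other tested spots as well), and the 3 named spots most correlated over the channels are given for the lipase spot and for the brightest alkaline phosphatase spot with all 12 channel values. That a comparison needs a value on both arrays of a stage was decided after values had been seen, and the looser rule is given as an alternative. The liver list was trimmed of parvalbumin after its name was seen. No shared pattern of same-lettered arrays was seen: their deviations from the stage means correlated across spots with r of -0.099, -0.047 and 0.034. Whether the letters mark a shared batch or dissection is not stated, and these correlations cannot settle it. Alternatives changed the background correction, normalisation, filter, scaling, block and treatment of missing spots, or left out each array.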

Additional observations from a re-analysis of the deposited data

Results flagged for a closer look

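The regional ratio of 3 alkaline phosphatase spots differed between stages in limma's test of the difference itself. For stage 39 minus 30 these were 2 of 5 members with values, where 60.1% of all spots were called. For stage 46 minus 39 it was 1 of 5, where 50.2% of all spots were called. The members' counts thus do not stand out from those of all spots. For XL080f13 the log2 ratio at stage 39 minus that at stage 30 was -0.74, and for XL108o04 it was -0.37. For XL105e22 the ratio at stage 46 minus that at stage 39 was 0.74, with neither region well above background at stage 39. These spots share an annotated name, and XL108o04 and XL080f13 had a lower ratio at stage 39 than at stage 30, whereas that of XL095o12, also of this name, differed by -0.03 (adjusted p = 0.796).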

How the results depend on the processing

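No called direction was reversed under any alternative. The number of members called was 6, 4 and 3 of 6 at stages 30, 39 and 46, 2 of 5 for stage 39 minus 30 and 1 of 5 for stage 46 minus 39. Of all spots, 56.4%, 63.1%, 55.6%, 60.1% and 50.2% were called in the same comparisons. Requiring signal above background on all 6 arrays left 2 members with values and gave 2, 0, 1, 1 and 0 calls in that order, where 59.5%, 67.3%, 60.1%, 64.2% and 53.2% of all spots were called. By the ratios of the authors' deposited table, 0 of 3, 0 of 7 and 0 of 7 members with a value exceeded 2-fold at the 3 stages, where 2.01%, 15.7% and 2.63% of all spots did. No member exceeded 2-fold in the main fit either, where the highest log2 ratio was 0.73. These counts therefore cannot show whether the calls hold in the deposited ratios. With a deposited value, each call at a stage kept its sign. Deposited log2 ratios were -0.34 (villin), 0.46 (XL108o04) and 0.20 (XL080f13) at stage 30. At stage 39 they were 0.24 (XL060g12), 0.16 (XL095o12) and -0.66 (XL080f13). At stage 46 they were 0.07 (XL095o12) and 0.16 (XL108o04), with -0.54 for XL080f13, not found there. Of ratios not called, XL108o04 at stage 39 and villin at stage 46 changed sign. Centring is unstated, so the signs were not tested. Alternatives chosen after seeing the data were to keep spots not found and to keep spots with a value on 1 array. Keeping spots not found gave 5 of 8 calls at stage 46, 4 of 8 for stage 39 minus 30 and 2 of 8 for stage 46 minus 39. Of all spots, 52.2%, 57.6% and 47.1% were called there. Keeping spots with a value on 1 array gave 7 of 7 calls at stage 30 (XL105e22 added, log2 ratio 0.27), against 54.4% of all spots. For stage 39 minus 30 it gave 4 of 7, against 58% of all spots. Of the 5 calls at stage 46 with spots not found kept, that of XL080f13 was lower (-0.63) and the others were higher. XL080f13 was well above background in neither region there. For stage 46 minus 39, no background subtraction gave 2 of 5 calls (51.5% of all spots) and median centring 3 of 5 (54.4% of all spots).

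Leaving out an array left 1 array at its stage. The share of all spots called in the ratio comparisons of that stage fell as well. Member calls lost in these fits are named with their spots above. A lower number of member calls there does not by itself set the members apart from other spots. Within a region no step was called, except 1 for anterior stage 39 over 30 and 1 for posterior stage 39 over 30 with spots not found kept (XL073o11 in both, adjusted p = 0.0455 and 0.0261), and 1 for posterior stage 39 over 30 (villin, -1.29, adjusted p = 0.0431) with no normalisation between arrays. In fits without an array, the intraspot correlation of all 6 arrays was used. Of the member values, 9 calls were lost and 2 gained when an array was left out, and 2 were lost and 7 gained under the other settings. The array letter as a replicate block gave 6, 4 and 4 of 6 calls at stages 30, 39 and 46. Of all spots, 53.6%, 60.9% and 52.4% were called there. Its 1 changed call was XL070p03 at stage 46 (limma, adjusted p = 0.0404). The cause of these changes was not tested.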
